A study of Homo sapiens with 34 samples.

Results

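The set comprised 9 genes, chosen by symbol from the 26336 genes of the count table because they are receptors or known targets of vitamin D, retinoic acid and thyroid hormone, lipophilic signals that charcoal may take out of serum along with steroids. For vitamin D they were the receptor VDR and the catabolic enzyme CYP24A1. For retinoids they were the receptors RARA and RARB, the retinoic acid hydroxylase CYP26A1 and the retinaldehyde reductase DHRS3. For thyroid hormone they were the receptor THRB, the type 1 deiodinase DIO1 and the corepressor HR (hairless). All 9 symbols were found. The choice was made with earlier results of these data known. RNA had been sequenced from 4 human prostate cell lines. RWPE is a non-tumorigenic prostate epithelial line kept in serum-free keratinocyte medium with EGF and bovine pituitary extract, and LNCaP, VCaP and MDAPCa2a are prostate cancer lines kept in media with fetal bovine serum. Each line was grown on plastic or on amorphous calcium phosphate (ACP), a mineral coating, in its control medium, in medium with charcoal-dextran-stripped serum (below, stripped serum), or in medium with added androgen.

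The 17 groups were as follows. RWPE had control medium on plastic and on ACP and androgen on ACP, and no stripped group. LNCaP and VCaP had control medium and stripped serum on both surfaces and stripped serum with androgen on ACP. MDAPCa2a had control medium and stripped serum on plastic and stripped serum without and with androgen on ACP, and no ACP group in control medium. The androgen was labelled 100 mM and is named DHT in one label and testosterone in another. Cells were collected on day 4, except those in control medium on plastic, which carry the label of continuous culture. MDAPCa2a was kept on FNC-coated plastic, whereas its ACP surfaces had no such coating. A group held 2 libraries, except that RWPE with androgen held 3 and VCaP in stripped serum on plastic held 1. Nothing in the labels says that libraries of a group came from separate cultures, so p-values measure the spread between these libraries, which may be technical.

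The 3 ligands act through nuclear receptors that pair with retinoid X receptors on DNA and change transcription when the ligand binds. Cells answer some ligands in part by making the enzymes that remove them: calcitriol, the hormonal form of vitamin D, induces CYP24A1, and retinoic acid induces CYP26A1. Retinoic acid also induces DHRS3, which acts on retinaldehyde, and its own receptor gene RARB. Thyroid hormone is activated or cleared by deiodinases, and DIO1 and HR are among the genes it induces in other tissues. Prostate epithelium is known to express VDR and retinoid receptors, and calcitriol is known to slow the growth of LNCaP cells in culture.

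Receptor dimers bind pairs of short half-sites, and a retinoic acid response element is typically a direct repeat with a spacer of 5 bases (DR5). These promoters are shown because 2 of the retinoid targets carry such an element beside their start and another target, DHRS3, does not. RefSeq promoters (GRCh38.p14, 250 bases before and 50 from the start on) matched 6 of the 9 members with 15 promoters, and none was matched for CYP24A1, VDR and HR. The half-site AGGTCA was searched on both strands together with the variant AGTTCA, the variant GGGTCA and the variant GGTTCA, alone and as direct repeats of any 2 with spacers of 3, 4 or 5 bases, so each repeat also counts as 2 half-sites. A DR5 lay in 31 of all 35116 promoters of this length (0.0883%), a DR4 in 30, a DR3 in 26 and a half-site in 38.6%. Capitals mark the half-sites of a direct repeat or, where there is none, single half-sites.
CYP26A1 promoter, chr10:93073643-93073942, plus strand: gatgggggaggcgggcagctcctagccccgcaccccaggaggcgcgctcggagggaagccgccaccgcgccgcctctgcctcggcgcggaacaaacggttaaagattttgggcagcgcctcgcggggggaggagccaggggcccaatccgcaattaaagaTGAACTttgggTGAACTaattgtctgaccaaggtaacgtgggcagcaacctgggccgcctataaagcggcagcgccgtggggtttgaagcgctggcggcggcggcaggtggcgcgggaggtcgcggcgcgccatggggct
RARB promoter, chr3:25428013-25428312, plus strand: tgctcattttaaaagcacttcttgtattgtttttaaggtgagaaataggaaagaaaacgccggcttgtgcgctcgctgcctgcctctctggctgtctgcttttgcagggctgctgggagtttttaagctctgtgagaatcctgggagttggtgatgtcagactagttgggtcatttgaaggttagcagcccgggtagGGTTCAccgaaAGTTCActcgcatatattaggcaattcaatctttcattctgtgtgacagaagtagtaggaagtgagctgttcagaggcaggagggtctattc
DHRS3 promoter, chr1:12616740-12617039, minus strand: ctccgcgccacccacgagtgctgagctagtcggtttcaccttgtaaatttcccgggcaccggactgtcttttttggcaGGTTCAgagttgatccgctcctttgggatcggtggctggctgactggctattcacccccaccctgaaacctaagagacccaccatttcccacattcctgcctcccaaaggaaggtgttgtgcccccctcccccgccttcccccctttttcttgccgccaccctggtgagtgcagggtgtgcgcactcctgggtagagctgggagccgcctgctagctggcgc
DIO1 promoter, chr1:53893937-53894236, plus strand: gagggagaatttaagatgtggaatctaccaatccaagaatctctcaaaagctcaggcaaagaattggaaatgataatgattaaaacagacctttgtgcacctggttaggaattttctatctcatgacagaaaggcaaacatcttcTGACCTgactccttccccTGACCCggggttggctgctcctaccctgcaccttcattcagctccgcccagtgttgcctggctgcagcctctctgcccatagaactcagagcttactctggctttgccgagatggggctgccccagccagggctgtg
The CYP26A1 repeat runs from base -90 to -74 before the start and reads as a DR5 on the opposite strand. The RARB repeat runs from -53 to -37 on the gene's strand, in 1 of its 4 listed promoters. None of the 3 DHRS3 promoters held a direct repeat, and 2 of them held 1 half-site each. DIO1 had 2 half-sites, and no promoter of RARA or THRB held a direct repeat. These are matches of letters, and binding was not measured.

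Libraries held 15.4 M to 44.8 M counted reads. The 8 plastic libraries in control medium were the deeper ones, at 34.9 M to 44.8 M, against 15.4 M to 37.0 M for the other 26. They also carried transcripts of other tissues. Of 12 liver genes, 9 were at 0 in every RWPE library on ACP, among them FGA, FGB, FGG, APOA1 and HP. There the summed level was at most 0.682 CPM (a gene's reads scaled to a common library size, with sizes set by TMM, which evens out composition), against 17.4 and 18.2 CPM in RWPE on plastic. In LNCaP the sum was 15.5 to 23.0 CPM in plastic control and 0.986 to 2.21 CPM in the other groups, and in MDAPCa2a 8.66 to 15.3 CPM against 0.0636 to 0.860 CPM. In VCaP, which has a high sum in most groups, it was 72.7 to 161 CPM in plastic control and 25 to 328 CPM elsewhere. The sum of 8 lymphoid genes was 4.99 to 17.5 CPM in the 8 libraries and at most 4.6 CPM in the other 26. DIO1, a gene typical of liver, had 1 read in each RWPE plastic control library, too few to tell whether liver transcripts contributed to it. Their part in the DIO1 reads of the other lines was not tested. In comparisons against plastic control, this difference, the label of continuous culture and the medium or surface cannot be told apart. The summed level of 5 basal genes, KRT5 among them, was 3674 to 16895 CPM in RWPE and at most 59.4 CPM in the cancer lines, and that of 6 luminal genes was 993 to 1550 CPM in RWPE and 1321 to 14463 CPM in the cancer lines. In bulk samples fewer cells of a type and less RNA per cell cannot be told apart.

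Each line had its own combination of these genes: CYP24A1 and HR were highest in RWPE, DIO1 in LNCaP, THRB in LNCaP and VCaP, and VDR, on plastic, in MDAPCa2a. On plastic in control medium all 9 members passed the count filter over the 4 lines, and edgeR's quasi-likelihood test at an adjusted p below 0.05 called 8 of 9 between LNCaP and RWPE (3 higher in LNCaP and 5 lower, when 57.4% of all genes tested were called). Between VCaP and RWPE it called 7 of 9 (3 higher and 4 lower, against 62.4% of all genes), and between MDAPCa2a and RWPE 6 of 9 (4 higher and 2 lower, against 56.7%). Among the cancer lines, 5 of 9 were called between VCaP and LNCaP (1 higher and 4 lower, against 52.6% of all genes), 6 of 9 between MDAPCa2a and LNCaP (4 higher and 2 lower, against 40.2%) and 5 of 9 between MDAPCa2a and VCaP (4 higher and 1 lower, against 52.4%). These comparisons share the plastic control libraries. The medium differed with the line, as RWPE was in serum-free medium and the cancer lines were in media with serum. MDAPCa2a was also on FNC-coated plastic. The line, its medium and its coating therefore cannot be told apart in the differences between lines given here and below. Since 40.2% to 62.4% of all genes were called in these pairs, nothing is read from the counts about the members as a set.

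**Figure D1:**
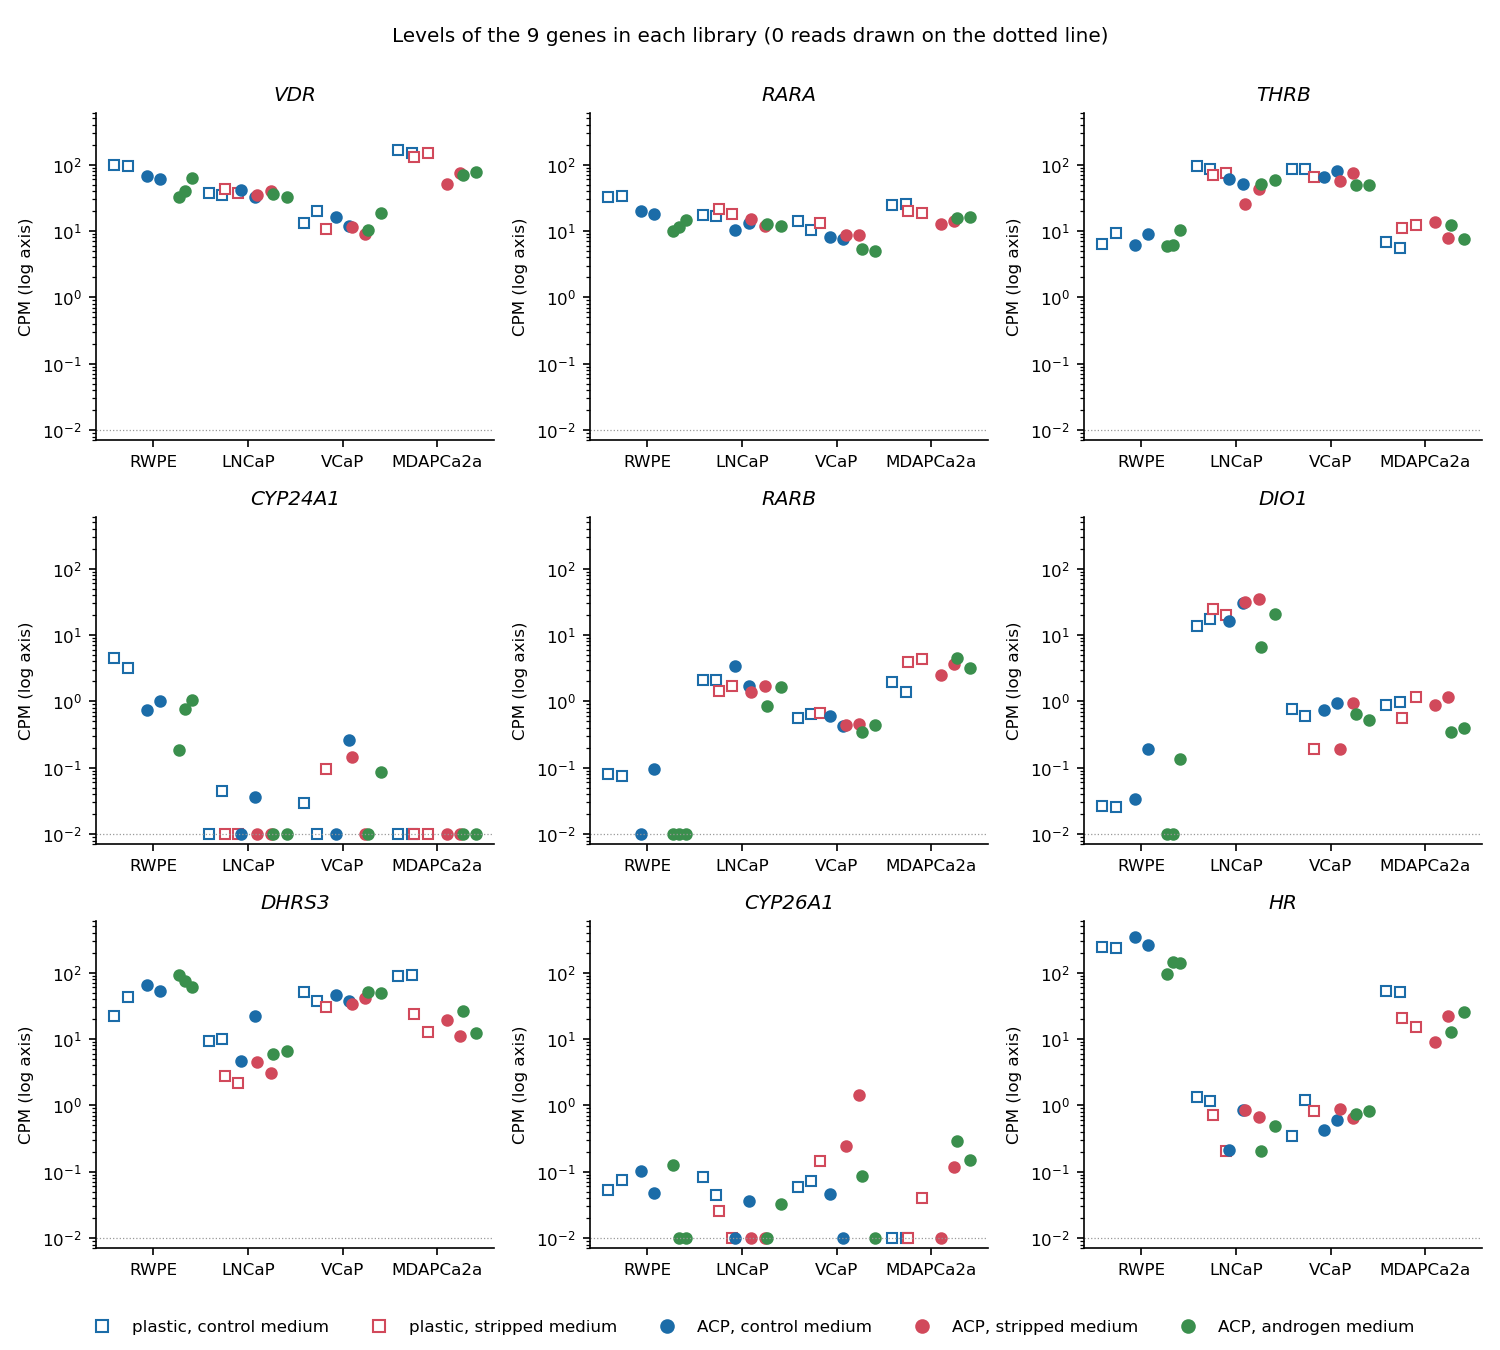
Level of each of the 9 genes in every library (CPM, log axis) by cell line, with squares for plastic, circles for ACP and colours for the medium; libraries with 0 reads are drawn on the dotted line. CYP24A1 stays above 0 in all RWPE libraries and is at 0 in all 8 of MDAPCa2a, DIO1 stands apart in LNCaP, and HR in RWPE and MDAPCa2a.

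The line with the most VDR on plastic had no CYP24A1 reads. VDR, the calcitriol receptor, was at 149 and 166 CPM in MDAPCa2a on plastic in control medium, 95.2 and 99.2 CPM in RWPE, 34.4 and 36.9 CPM in LNCaP and 13.2 and 19.8 CPM in VCaP. The 4 lines thus formed an order with no overlap between neighbours, and all 6 pairs passed the test. The step from RWPE to MDAPCa2a was the smallest, with a log2 difference of 0.70 ± 0.27 (SE; adjusted p = 0.0302), and it was no longer called with RLE size factors (0.60, adjusted p = 0.0561) or without any 1 of the 4 libraries. MDAPCa2a exceeded VCaP by 3.25 ± 0.29 (adjusted p = 1.65e-09), a 9.52-fold difference. CYP24A1, which inactivates calcitriol, had 126 and 172 reads in RWPE on plastic, 21 and 22 on ACP in control medium and 3, 13 and 23 with androgen. Outside RWPE it had 3 reads over 10 LNCaP libraries, 14 over 9 VCaP libraries and none in the 8 of MDAPCa2a, the line with the most VDR on plastic. Against RWPE on plastic, the summed reads in control medium were at least 89.9-fold lower in MDAPCa2a, where 0 reads over the group were taken as 3. The ratio to LNCaP, with 2 reads, was 179 (95% counting interval 49.0 to 1483). Such intervals and floors cover counting error only.

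Within LNCaP and VCaP, VDR did not pass the test in any comparison. In LNCaP its 10 libraries lay between 32.5 and 42.5 CPM, and the lowest adjusted p of any comparison within this line was 0.452. In VCaP they lay between 9.02 and 19.8 CPM. In MDAPCa2a VDR was at 131 and 151 CPM in stripped serum on plastic, close to control medium, and at 51.5 and 74.6 CPM in the same medium on ACP. The groups on the 2 surfaces did not overlap. The log2 difference of -1.08 ± 0.19 had an unadjusted p of 0.000257 and an adjusted p of 0.131, and it was called with DESeq2 (adjusted p = 0.000362) and without the count filter (0.000668). In this comparison edgeR called 0.00734% of all genes and none of the 7 members tested, of which 2 had an unadjusted p below 0.05 and 1 was called by DESeq2. MDAPCa2a was on FNC-coated plastic there, so the mineral and the coating cannot be told apart. MDAPCa2a libraries with androgen on ACP, at 70.7 and 77.7 CPM, were also below those on plastic. The MDAPCa2a libraries on ACP overlapped those of RWPE on ACP in control medium, at 60.7 and 67.1 CPM.

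The retinoid receptors RARA and RARB differed in their order across lines: RARA was highest in RWPE, where RARB was nearly absent. RARA, the widely expressed receptor, was at 32.8 and 33.8 CPM in RWPE on plastic in control medium, 24.8 and 25.4 in MDAPCa2a, 17 and 17.7 in LNCaP and 10.4 and 14.2 in VCaP. RWPE and MDAPCa2a did not pass the test (log2 difference -0.41 ± 0.19, adjusted p = 0.0743; called by DESeq2 at 0.00923), whereas MDAPCa2a exceeded LNCaP by 0.53 ± 0.19 (adjusted p = 0.0293) and VCaP was below LNCaP with -0.50 ± 0.19 on this scale (adjusted p = 0.0328), and both calls were lost when single libraries were left out (adjusted p up to 0.134 and 0.316). RARB, which retinoic acid induces and which prostate tumours often silence, had at most 3 reads in any RWPE library. It was at 2.07 and 2.09 CPM in LNCaP, 1.41 and 1.96 in MDAPCa2a and 0.554 and 0.651 in VCaP. LNCaP and MDAPCa2a differed by less than their spread (adjusted p = 0.601), and MDAPCa2a exceeded VCaP by 1.47 ± 0.45 (adjusted p = 0.00863, and up to 0.0765 without 1 library). DHRS3 was at 89.2 and 91.7 CPM in MDAPCa2a, 37.5 and 51.3 in VCaP, 22.0 and 43.2 in RWPE and 9.38 and 9.91 in LNCaP. LNCaP was below all the others, though the call against RWPE was lost without 1 RWPE library (-1.19, adjusted p = 0.0594), and neither MDAPCa2a and VCaP (adjusted p = 0.0556) nor VCaP and RWPE (0.395) passed the test.

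Per kilobase of merged exons in a GENCODE annotation of GRCh38, levels of different receptors can be set side by side, but only roughly. That length takes in the exons of all annotated transcripts of a gene, and which of them these cells make was not measured. In RWPE on plastic RARG, the retinoid receptor typical of epidermis, was at 40.5 ± 0.249 CPM per kb and its partner RXRA at 41.8 ± 1.37 (SD, n = 2), against 7.04 ± 0.159 for RARA and 17.1 ± 0.502 for VDR. In LNCaP on plastic RARG was at 2.28 ± 0.0378, RARA at 3.67 ± 0.102 and RARB at 0.563 ± 0.00319 CPM per kb. In MDAPCa2a on plastic in control medium VDR was at 27.7 ± 2.13 and RXRB at 21.3 ± 0.851 CPM per kb, whereas in stripped serum on ACP VDR was at 11.1 ± 2.87 and RXRB at 15.7 ± 0.921. THRB at 8.24 ± 0.525 and its relative THRA at 6.75 ± 0.484 CPM per kb were at like levels in LNCaP, whereas in MDAPCa2a THRA was at 9.29 ± 0.388 and THRB at 0.558 ± 0.0853. Exons of 5 of these genes overlap those of an opposite-strand gene in the table. The partners of RXRB and RARB had more reads than the genes themselves over all libraries: SLC39A7 shares 244 bases with RXRB and had 275043 reads against 80387, and TOP2B shares 28 bases with RARB and had 169007 against 1307. RARA shares 556 bases with RARA-AS1, THRA 263 with NR1D1 and THRB 42 with THRB-AS1, and these partners had fewer reads. The use of strand in counting is not given in the sources used here, so within the shared bases reads of such partners cannot be told apart.

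Stripped serum was the condition in which a fall of ligand-induced genes could be looked for, and DHRS3 was the only member that edgeR called for it. This enzyme reduces retinaldehyde to retinol and is induced by retinoic acid. On plastic it was at 9.38 and 9.91 CPM in LNCaP in control medium and at 2.14 and 2.77 in stripped serum. In MDAPCa2a it was at 89.2 and 91.7 CPM in control medium and at 12.8 and 24.0 in stripped serum. The groups did not overlap in either line. Both control groups are plastic libraries of continuous culture that carry liver transcripts, so the part of the medium cannot be told apart here. DHRS3 fell by 1.91 ± 0.53 on the log2 scale in LNCaP (3.77-fold, adjusted p = 0.0450) and by 2.27 ± 0.43 in MDAPCa2a (4.81-fold, adjusted p = 0.0414). It was the only member called of 7 tested in each line, where 9.45% of all genes tested were called in LNCaP and 1.58% in MDAPCa2a. Without any 1 of the 4 libraries the call was lost, with adjusted p from 0.144 to 0.210 in LNCaP and from 0.115 to 0.272 in MDAPCa2a, while the log2 change stayed between -2.08 and -1.80 and between -2.77 and -1.91. In VCaP the single stripped library had 30.6 CPM against 37.5 and 51.3, a log2 change of -0.50 ± 0.29 (adjusted p = 0.373), and none of the 8 members tested was called (0 also at an unadjusted p below 0.05 and by DESeq2, against 0.890% of all genes by edgeR).

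On ACP the control and stripped groups were both collected on day 4. LNCaP had DHRS3 at 4.72 and 22.2 CPM in control medium and at 3.08 and 4.46 in stripped serum, and VCaP at 37.0 and 46.0 against 33.4 and 41.8. The LNCaP libraries did not overlap but the lower control lay close to the higher stripped one, and the VCaP groups overlapped. The log2 change was -1.84 ± 0.52 in LNCaP (adjusted p = 0.0652) and -0.13 ± 0.23 in VCaP (adjusted p = 0.821). The LNCaP value was -2.56 (adjusted p = 0.000753) without the lower control library and -0.37 without the higher, so 1 library set its size, and DESeq2 called it (adjusted p = 0.00269). The change in VCaP exceeded that in LNCaP by 1.69 ± 0.65, which did not pass the test of the difference (adjusted p = 0.255, or 0.0437 without the lower LNCaP control). None of 7 members was called in LNCaP (2 at an unadjusted p below 0.05 and 2 by DESeq2, against 5.37% of all genes by edgeR) and none of 8 in VCaP (1 and 0, against 0.820%). In MDAPCa2a on ACP, where no control medium was sampled, stripped serum gave 11 and 19.5 CPM, against 12.8 and 24.0 CPM in the same medium on plastic.

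**Figure D2:**
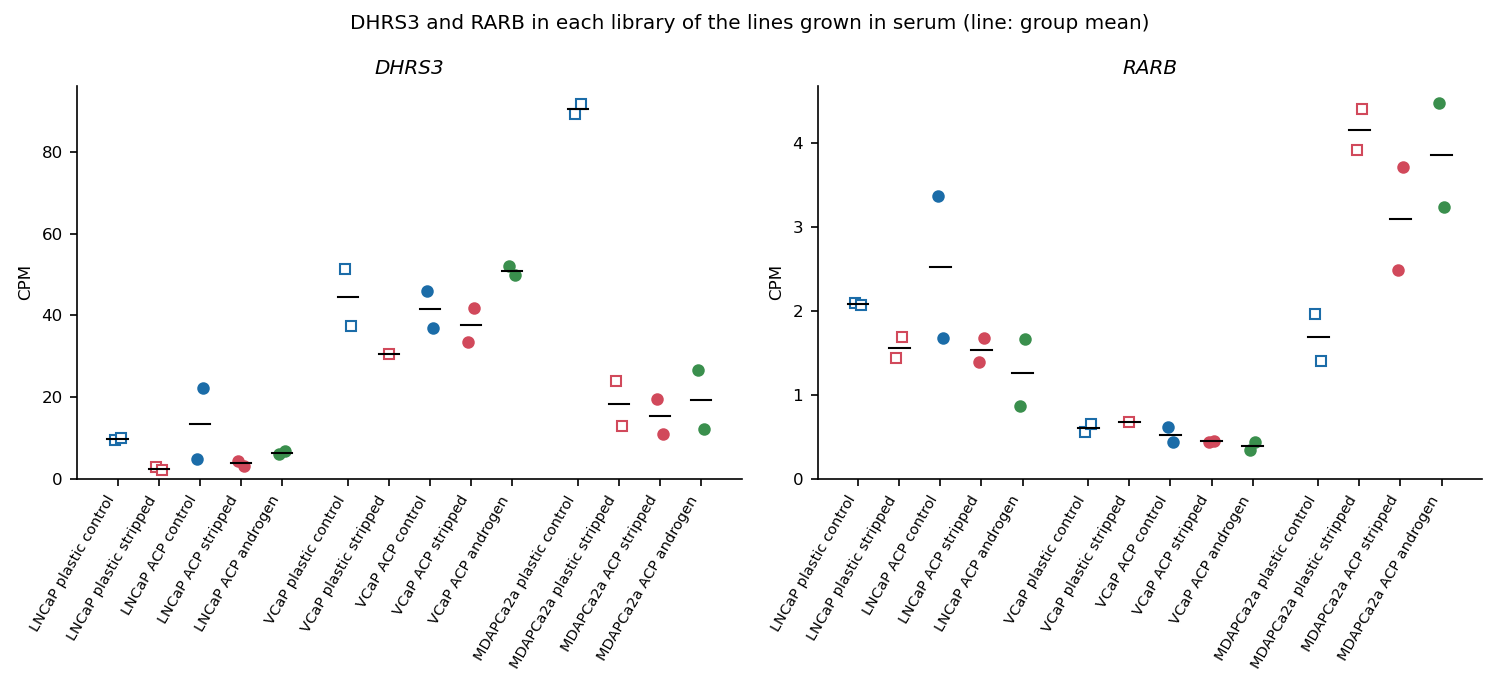
DHRS3 (left) and RARB (right) in every library of the 3 lines kept in serum, in CPM on linear axes from 0, with squares for plastic, circles for ACP, blue for control, red for stripped serum and green for androgen; black bars are group means. In MDAPCa2a on plastic DHRS3 goes from 89.2 and 91.7 CPM in control medium to 12.8 and 24.0 in stripped serum while RARB goes from 1.41 and 1.96 to 3.92 and 4.4.

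Of the targets with a DR5 next to the start, RARB was not called lower in stripped serum in any line. The other, CYP26A1, had too few reads in control medium for a fall to be seen. In MDAPCa2a on plastic RARB was at 1.41 and 1.96 CPM in control medium and at 3.92 and 4.4 in stripped serum, with no overlap. The log2 change of 1.34 ± 0.32 had an adjusted p of 0.0755 with edgeR and of 0.0271 with DESeq2. In LNCaP RARB was at 1.44 and 1.68 CPM in stripped serum on plastic, a change of -0.38 ± 0.41 (adjusted p = 0.623), and at 1.39 and 1.68 on ACP, -0.74 ± 0.41 (adjusted p = 0.320). CYP26A1 was close to absent, with at most 5 reads in every library but 1. That library, of VCaP in stripped serum on ACP, had 35 reads and the other of its group had 5, against 1 and 0 in control medium and 2 and 0 with androgen. The ratio of summed reads was 39.6 against control medium (95% counting interval 6.71 to 1602) and 20.5 against androgen (5.31 to 175), and edgeR gave adjusted p of 0.124 and 0.0524. Most of these reads came from 1 library. The gene passed the count filter within VCaP and in no other line.

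Of the thyroid genes, the receptor THRB was highest in LNCaP and VCaP. On plastic in control medium it was at 86.3 and 94.5 CPM in LNCaP, 84.7 and 87.0 in VCaP, 6.34 and 9.38 in RWPE and 5.46 and 6.78 in MDAPCa2a. LNCaP and VCaP differed by less than their spread (adjusted p = 0.849), as did RWPE and MDAPCa2a (0.310), and LNCaP exceeded RWPE by 3.52 ± 0.31 on the log2 scale (adjusted p = 7.38e-10). DIO1, which removes iodine from the thyroid hormone ring, was a gene of LNCaP: 6.63 to 35.3 CPM over its 10 libraries, at most 1.17 CPM in MDAPCa2a, at most 0.950 in VCaP and at most 0.195 in RWPE. Relative to LNCaP the log2 difference was -4.51 ± 0.54 in VCaP (adjusted p = 1.71e-07) and -4.03 ± 0.52 in MDAPCa2a (8.75e-07), and MDAPCa2a and VCaP did not differ beyond their spread (adjusted p = 0.491). HR, a corepressor that binds thyroid hormone and vitamin D receptors, was at 237 and 245 CPM in RWPE, 50.4 and 52.2 in MDAPCa2a, 1.17 and 1.33 in LNCaP and 0.350 and 1.20 in VCaP. MDAPCa2a was below RWPE (log2 difference -2.23 ± 0.40, adjusted p = 4.16e-05) and MDAPCa2a exceeded LNCaP by 5.35 ± 0.49 (2.57e-09), and LNCaP and VCaP did not pass the test (adjusted p = 0.310).

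With stripped serum on plastic in MDAPCa2a, HR moved alongside DHRS3, from 50.4 and 52.2 CPM to 15.2 and 21.0, and stayed between 9.03 and 25.5 CPM in the 4 ACP libraries. Its log2 change was -1.47 ± 0.40 (adjusted p = 0.115), and DESeq2 called it (adjusted p = 0.00479), as did the fit of all lines (0.0448). THRB in the same comparison went from 5.46 and 6.78 CPM to 11.2 and 12.4, 0.98 ± 0.33 (adjusted p = 0.193). In LNCaP THRB was lower in stripped serum on ACP, at 25.6 and 42.5 CPM against 50.3 and 60.5, with -0.72 ± 0.22 (adjusted p = 0.0875), and on plastic it was at 69.1 and 75.4 against 86.3 and 94.5, with -0.27 ± 0.22 (adjusted p = 0.490). DIO1 had the other sign in LNCaP, at 19.7 and 24.4 CPM against 13.8 and 17.3 on plastic and 31.2 and 35.3 against 16.3 and 30.1 on ACP. These differences of 0.55 ± 0.41 and 0.51 ± 0.41 did not pass the test (adjusted p = 0.449 and 0.502). Whether the effect of stripped serum in LNCaP differed between ACP and plastic was tested for 7 members, and none was called (0 also at an unadjusted p below 0.05 and by DESeq2, against 0.307% of all genes by edgeR).

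No member was called for androgen, which 3 lines received on ACP in stripped medium. In LNCaP edgeR called 0 of 7 members and 7.73% of all genes, and 2 members had an unadjusted p below 0.05 and 2 were called by DESeq2. In VCaP it called 0 of 8 and 17.5% of all genes (2 and 0 members by the other counts), and in MDAPCa2a 0 of 7 and 0% (1 and 0). The androgen reference gene KLK3, which encodes prostate-specific antigen, was higher with androgen by 1.01 ± 0.17 on the log2 scale in LNCaP (adjusted p = 0.00722) and by 4.77 ± 0.74 in VCaP (0.00384), a difference between the lines of 3.75 ± 0.74 (adjusted p = 0.00235). All 4 of KLK3, KLK2, TMPRSS2 and FKBP5 rose in these 2 lines and none was called in MDAPCa2a. DIO1 in LNCaP was at 31.2 and 35.3 CPM in stripped serum and at 6.63 and 20.8 with androgen, with no overlap. The change of -1.30 ± 0.42 had an adjusted p of 0.0812, and DESeq2 called it (0.00986). In MDAPCa2a it went from 0.890 and 1.16 CPM to 0.344 and 0.404, from 34 reads to 14 (adjusted p = 0.968). THRB in LNCaP was at 51.9 and 58.0 CPM with androgen against 25.6 and 42.5, 0.67 ± 0.22 (adjusted p = 0.0867), and in VCaP at 48.8 and 50.03 against 57.2 and 74.5, -0.41 ± 0.20 (adjusted p = 0.165). The difference between the lines, -1.11 ± 0.40, did not pass (adjusted p = 0.0765). RARA in VCaP went from 8.57 and 8.63 CPM to 4.95 and 5.28, -0.75 ± 0.28 (adjusted p = 0.0910). DHRS3 was higher with androgen in LNCaP, VCaP and MDAPCa2a by 0.73 ± 0.51, 0.44 ± 0.23 and 0.30 ± 0.43, and none passed the test (adjusted p = 0.425, 0.205 and 0.968).

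Between androgen medium and control medium on ACP, edgeR called none of 7 members in LNCaP (2 at an unadjusted p below 0.05 and 0 by DESeq2, against 15.1% of all genes) and none of 8 in VCaP (1 and 0, against 5.99%). DHRS3 in LNCaP was at 5.94 and 6.69 CPM with androgen, between the 2 control libraries. In RWPE 2 of 6 members were called, both lower with androgen, when 19.1% of all genes were. Tests of a difference between VCaP and LNCaP called 0 of 9 members for the androgen effect (2 at an unadjusted p below 0.05 and 1, THRB, by DESeq2, against 10.9% of all genes by edgeR) and 0 of 9 for the response to stripped serum on ACP (2 and 0, against 0.595%).

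**Figure D3:**
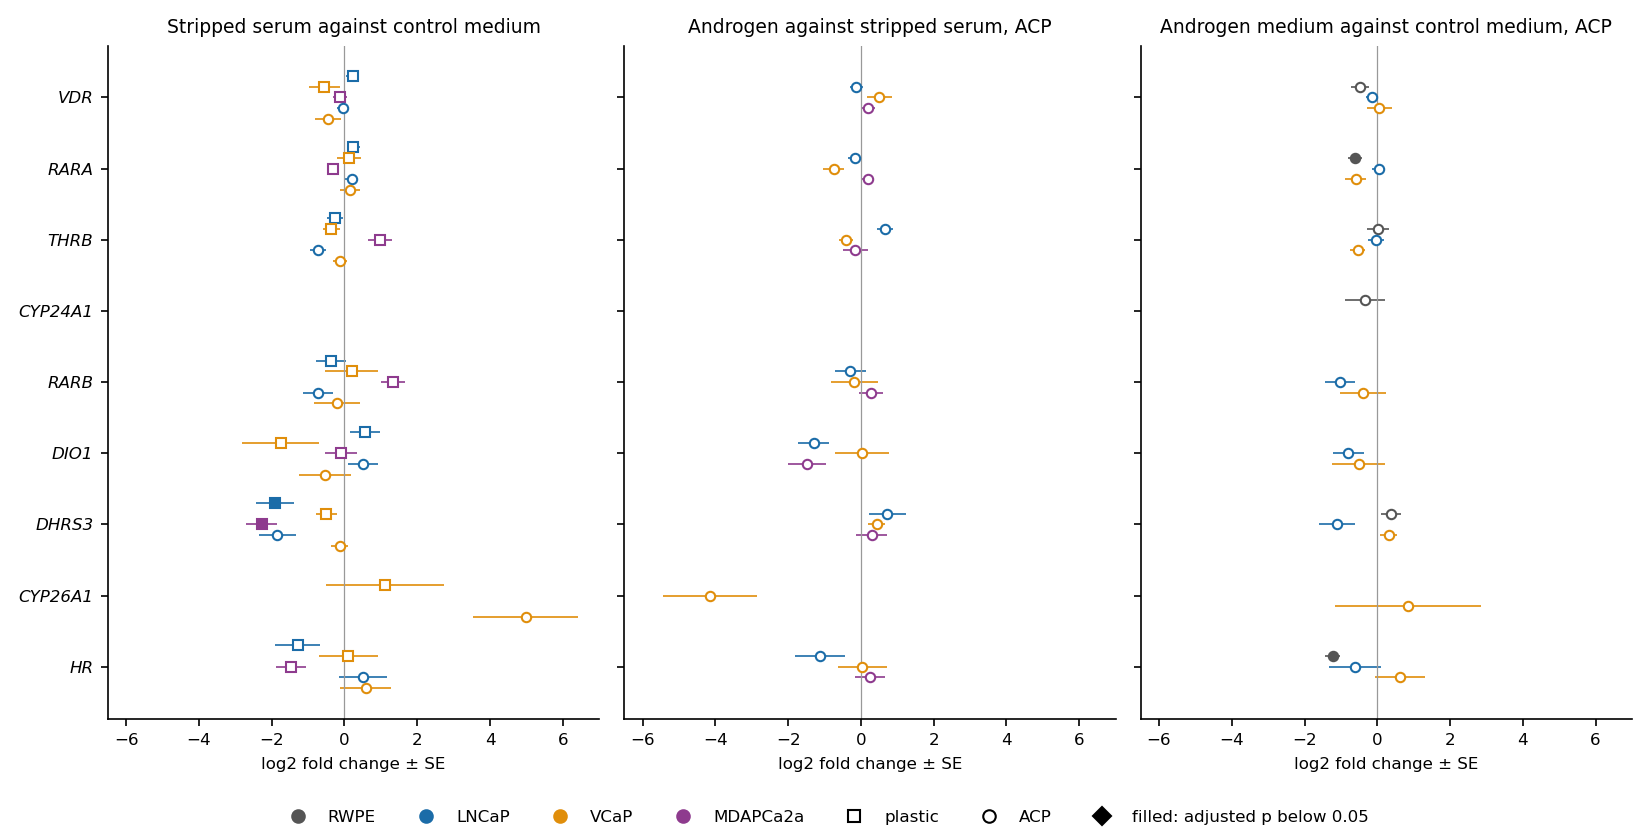
Log2 fold change ± SE of each member tested within a line, for stripped serum against control medium (left), androgen against stripped serum on ACP (middle) and androgen medium against control medium on ACP (right); colours are lines, squares plastic and circles ACP, and filled symbols have an adjusted p below 0.05 in edgeR. The filled symbols are DHRS3 in LNCaP and MDAPCa2a on plastic at left and HR and RARA in RWPE at right.

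In RWPE on ACP, HR was at 260 and 345 CPM in control medium and at 95.9, 140 and 147 with androgen, with no overlap. It fell by 1.22 ± 0.21 on the log2 scale, or 2.34-fold (adjusted p = 0.0170). RARA was at 18.0 and 19.9 CPM in control medium and 10.0, 11.6 and 14.8 with androgen, and fell by 0.62 ± 0.18 (1.53-fold, adjusted p = 0.0405). The HR call was lost without either control library (adjusted p up to 0.275) and the RARA call without 4 of the 5 libraries (up to 0.295). VDR was at 60.7 and 67.1 CPM against 32.0, 39.6 and 63.9, with overlap, and the change of -0.48 ± 0.24 did not pass (adjusted p = 0.181). Without the third androgen library VDR changed by -0.81 (adjusted p = 0.00121). The summed level of the 5 basal genes also ranged widely there, from 3674 to 11544 CPM with androgen against 13466 and 16895 in control medium, and its part in these changes was not tested. None of KLK3, KLK2, TMPRSS2 and FKBP5 was called in RWPE.

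**Figure D4:**
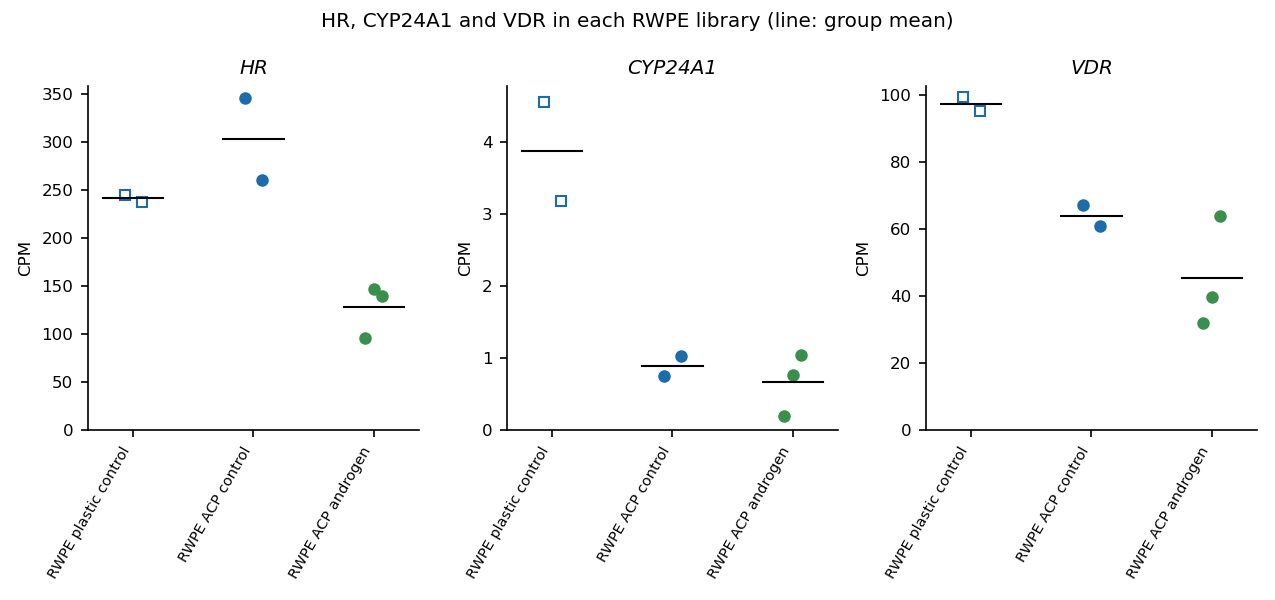
HR, CYP24A1 and VDR in each RWPE library, in CPM on linear axes from 0, with open squares for plastic in control medium, blue circles for ACP in control medium, green circles for ACP with androgen and black bars for group means. The 3 androgen libraries of HR, at 95.9 to 147 CPM, lie below all others, and the 2 plastic libraries of CYP24A1, at 3.19 and 4.56 CPM, above all others.

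RARA was lower on the mineral surface in every line, though with TMM sizes and the count filter edgeR called none of these differences. RWPE had RARA at 18.0 and 19.9 CPM on ACP against 32.8 and 33.8 on plastic in control medium. LNCaP had 10.2 and 13.1 against 17 and 17.7 in control medium and 12.0 and 15 against 18.4 and 21.4 in stripped serum. VCaP had 7.64 and 8.03 against 10.4 and 14.2 in control medium and 8.57 and 8.63 against 13 in stripped serum. MDAPCa2a had 12.7 and 14.3 against 18.9 and 20.3 in stripped serum, and as its plastic was FNC-coated, the mineral and the coating cannot be told apart there. RARA shares 556 exon bases with RARA-AS1, and within these bases reads of the 2 genes cannot be told apart. In all 6 comparisons every ACP library lay below every plastic library, a pattern that was singled out after the values were seen and that 1.51% of the 13739 genes with a mean of at least 1 CPM shared (208 genes). The log2 changes ran from -0.79 to -0.45, and none passed the test (adjusted p from 0.0517 to 1), the lowest being RWPE with -0.79 ± 0.20. That difference was called by DESeq2 (0.00908) and by edgeR in the fit of all lines (0.0177), with no filter on counts (0.0248) and with RLE sizes (0.0485). The 3 comparisons in stripped serum do not involve the plastic control libraries. With CPM from library totals in place of TMM sizes, a scaling also chosen after the data were seen, all 6 again showed no overlap. These are the same counts rescaled, so they give no separate support for the pattern. The share over all genes under this scaling is not given here.

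**Figure D5:**
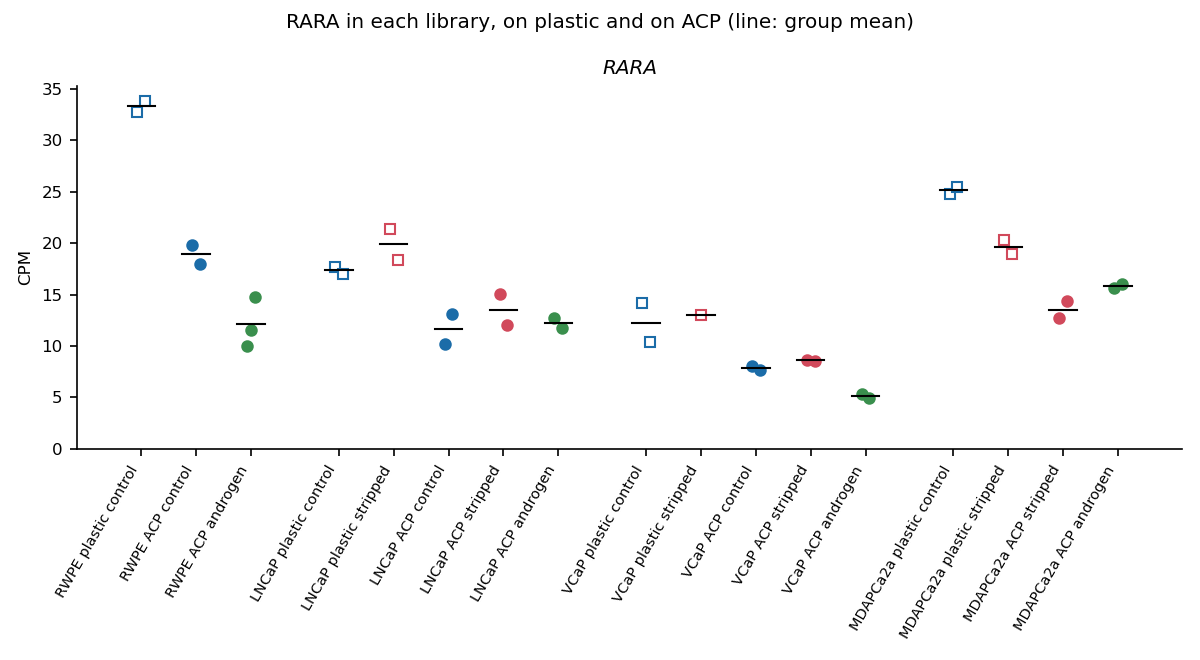
RARA in every library (CPM, linear axis from 0), with open squares for plastic, filled circles for ACP, blue for control medium, red for stripped serum, green for androgen and black bars for group means. In each line and medium that was sampled on both surfaces, the circles lie below the squares, as in LNCaP in stripped serum at 12.0 and 15 against 18.4 and 21.4 CPM.

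THRB was the member called between surfaces. In LNCaP in stripped serum it was at 25.6 and 42.5 CPM on ACP and at 69.1 and 75.4 on plastic, and fell by 1.05 ± 0.22 on the log2 scale (2.07-fold, adjusted p = 0.0216; 1 of 7 members, 6.12% of all genes). The call was lost when any of 3 of the 4 libraries was left out (adjusted p up to 0.135). In control medium THRB in LNCaP was at 50.3 and 60.5 CPM on ACP against 86.3 and 94.5, -0.60 ± 0.22 (adjusted p = 0.0887), and none of 7 members was called (2 at an unadjusted p below 0.05 and 1 by DESeq2, against 12.6% of all genes by edgeR). In VCaP none of 8 members was called between surfaces, in stripped serum (0 at an unadjusted p below 0.05 and 0 by DESeq2, against 0% of all genes by edgeR) or in control medium (0 and 0, against 0.0448%). In RWPE none of 6 was called (3 and 2, against 4.16%), but CYP24A1 and RARA came close to the threshold. CYP24A1 went from 3.19 and 4.56 CPM on plastic to 0.749 and 1.02 on ACP, -2.11 ± 0.53 (adjusted p = 0.0524), and was called with DESeq2 (0.00539) and without the count filter (0.00821). DHRS3 had the other sign, at 52.2 and 64.9 CPM on ACP against 22.0 and 43.2, 0.87 ± 0.30 (adjusted p = 0.126, and 0.0477 without the count filter).

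The wider pathways were read from lists of 23 vitamin D genes, 42 retinoid genes and 23 thyroid genes that hold no member. All but 2 of the retinoid genes were in the table, and 16, 29 and 16 reached 1 CPM in some library. In LNCaP with stripped serum on ACP, where control and stripped cells were of the same day, 1 of 11 vitamin D genes tested was higher and none lower, 1 of 22 retinoid genes was lower, and 2 of 16 thyroid genes were lower, when 5.37% of all genes tested were called. The medians of log2 change were 0.107, 0.256 and -0.138 against -0.010 over all genes. ATP2B1, a calcium pump that vitamin D is known to raise, was at 120 and 175 CPM in stripped serum against 61.7 and 65.5 (1.20 ± 0.22, adjusted p = 0.010). ALDH1A3, which makes retinoic acid from retinaldehyde, was at 65.8 and 75.3 against 105 and 242 CPM and fell by 1.31 ± 0.28 (adjusted p = 0.0230). SLC16A10, an amino acid and thyroid hormone transporter, was at 3.50 and 3.95 against 8.83 and 10.2 CPM and fell by 1.37 ± 0.24 (adjusted p = 0.00842), and the corepressor NCOR1 fell by 0.65 ± 0.15 (0.0276). None of the genes tested in the 3 lists was called in VCaP (15, 29 and 15 tested, of which 2, 1 and 3 had an unadjusted p below 0.05 and 0, 0 and 1 were called by DESeq2, against 0.820% of all genes by edgeR, with medians of 0.240, 0.258 and -0.216 against 0.084 over all genes).

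On plastic, LNCaP in stripped serum had 1 vitamin D gene higher and 2 lower of 11, 4 retinoid genes lower of 22, and 1 thyroid gene higher and 3 lower of 16, when 9.45% of all genes were called, with medians of -0.161, 0.235 and -0.262 against -0.005 over all genes. ATP2B1 was at 122 and 169 CPM against 68.7 and 70.8 (1.12 ± 0.22, adjusted p = 0.00969), as on ACP. The largest falls in the first 2 lists were the vitamin D carrier gene GC, at 0 reads in stripped serum and 2.54 and 3.00 CPM in control medium, and ALDH1A1, at up to 0.0257 against 1.13 and 1.33 CPM. GC and the retinol carrier gene RBP4 are made in liver and moved with the liver transcripts of plastic control. The part of those transcripts in these falls and in that of ALDH1A1 was not tested. In MDAPCa2a 1 vitamin D gene was higher and 1 lower of 12, 1 retinoid gene was lower of 21 and 1 thyroid gene lower of 13, when 1.58% of all genes were called, with medians of -0.554, 0.060 and -0.002 against -0.010. GC, at most 0.0404 CPM against 1.57 and 1.79, and RBP4, at 0 reads against 0.910 and 1.49 CPM, were again among them, and FBP1, a gluconeogenic enzyme, was higher at 17.5 and 20.6 against 8.96 and 10.2 CPM (1.03 ± 0.19, adjusted p = 0.0361). In VCaP none was called in the 3 lists (5, 8 and 5 at an unadjusted p below 0.05 and 2, 1 and 2 by DESeq2, against 0.890% of all genes by edgeR). The androgen reference genes all fell in LNCaP on plastic, KLK3 by 4.41 ± 0.20 (adjusted p = 1.96e-06). In MDAPCa2a none of the 4 fell, and FKBP5 was higher by 2.10 ± 0.21 (0.00719).

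In VCaP the retinoid receptor RARG and the binding protein CRABP1 were among the list genes called with androgen, in a comparison where 17.5% of all genes were called, and the lists' counts are read against that share. With androgen against stripped serum on ACP, VCaP had 1 of 15 vitamin D genes lower, 2 retinoid genes higher and 4 lower of 29, and 3 of 15 thyroid genes lower. In all that was a share near the one over all genes. The medians were -0.131, -0.256 and 0.009 against -0.026 over all genes. CRABP1, a retinoic acid binder, fell with a log2 change of -2.51 ± 0.51 (adjusted p = 0.0106). The receptor RARG, named here after its values were seen, was at 5.12 and 5.80 against 16.2 and 19.8 CPM (-1.72 ± 0.26, adjusted p = 0.00383). ALDH1A3 rose to 89.1 and 195 from 33.9 and 38.3 CPM (1.97 ± 0.34, adjusted p = 0.00560). The largest thyroid fall was KLF9, a transcription factor that thyroid hormone and glucocorticoids are known to induce, at 2.93 and 3.03 against 8.48 and 11 CPM (-1.70 ± 0.30, adjusted p = 0.00639). IGFBP3, a secreted growth factor binder that vitamin D is known to raise in prostate cells, was at 9.22 and 13.1 against 195 and 1869 CPM in VCaP (-6.53 ± 1.16, adjusted p = 0.00643). Summed marker levels moved in the same comparison. The 6 fibroblast genes summed to 40.7 and 161 CPM in stripped serum, with COL1A2 at 0, against 7.66 and 8.63 CPM with androgen, and the 12 liver genes to 278 and 328 CPM, with 4 of them at 0, against 25 and 91.2 CPM. Their part in the VCaP changes was not tested. In LNCaP IGFBP3 was higher with androgen, at 14.9 and 46.1 against 4.66 and 6.16 CPM (2.49 ± 0.52, adjusted p = 0.0172). Its androgen effect in VCaP minus that in LNCaP was -9.03 ± 1.17 (adjusted p = 5.39e-05).

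In LNCaP with androgen, 1 of 11 vitamin D genes was higher, 1 retinoid gene was higher and 1 lower of 22, and 2 of 16 thyroid genes were higher, when 7.73% of all genes were called, with medians of -0.068, -0.109 and 0.077 against -0.012 over all genes. ALDH1A3 rose to 172 and 187 from 65.8 and 75.3 CPM (1.33 ± 0.28, adjusted p = 0.0188), and CRYM, a cytosolic thyroid hormone binder, to 17.7 and 31.5 from 6.09 and 8.93 (1.70 ± 0.30, 0.00745). In MDAPCa2a none of the 12, 21 and 13 genes tested was called (0, 1 and 1 at an unadjusted p below 0.05, 0 in each by DESeq2, against 0% of all genes by edgeR). In RWPE between androgen and control medium, 2 of 13 vitamin D genes were lower, 1 retinoid gene was higher and 2 lower of 25, and 1 thyroid gene was higher and 2 lower of 14, when 19.1% of all genes were called (medians 0.000, -0.224 and -0.346 against -0.016). The 3 receptors RXRA (-1.04 ± 0.22, adjusted p = 0.0186), RARG (-0.77 ± 0.22, 0.0395) and THRA (-0.75 ± 0.18, 0.0221) were lower beside RARA. Many of the list genes' calls rest on few libraries: with 1 library left out, 237 of 501 refitted values within lines were no longer called.

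Across the 13 groups outside plastic control, with each gene's mean log2 CPM centred within its line, up to 2 genes most like each member are given from among 15428 others. These are descriptions over few groups that share lines. DHRS3 went with C3orf52 (Pearson r = 0.951) and ZNF681 (0.943), and VDR with MYPOP (0.976) and SCNN1G (0.951). RARA had EVC (0.988), the closest likeness of any member. RARB had TOR4A (0.910) and SYNJ2 (0.891), THRB had SAP25 (0.930) and SLC38A11 (0.896), HR had ELF3 (0.904) and LY6G6C (0.854), and DIO1 had CELF2 (0.846) and WEE1 (0.836). CYP24A1 and CYP26A1 did not reach a group mean of 1 CPM in those groups.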

How the data were processed

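RNA of 34 libraries in 17 groups was sequenced. The authors deposited raw read counts per gene in 1 table, unnormalized. Per the submitters' processing notes STAR, HTSeq and hg19 were used. Whether counting used strand is not given in the sources used here, nor are the settings. In RWPE plastic control, 12 genes hold 16 values that look like spreadsheet dates, none of them a member. Counts were tested with edgeR 4.0.16 (R 4.3.3, quasi-likelihood, TMM, filterByExpr with a minimum count of 10, Benjamini-Hochberg adjusted p below 0.05), within each line or, between lines, in 1 fit of all. The fits were tested on simulated data. CPM used TMM sizes over all libraries, and the SE is the log2 fold change over the root of F. Alternatives were RLE size factors, no count filter, a replicate block, 1 fit of all lines, DESeq2 1.42.0, each library left out, and no date-like genes. Libraries held 15.4 M to 44.8 M reads, with 15 groups of 2, so small changes of low genes are imprecise. Replicates differed by more than counting noise (chi-square per gene 10.2 to 128), so none was merged. The members and lists were chosen with earlier results of these data known. Named genes are the members, the 2 largest rises and falls per list at 1 CPM or more, 4 androgen reference genes and the 2 genes most like each member. Some genes that this rule names are not reported here.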

Additional observations from a re-analysis of the deposited data

How the results depend on the processing

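Of 202 member tests, 132 were called under no setting, and 59 of these changed sign under some setting. The 5 member calls within lines were all kept with DESeq2, RLE size factors, a replicate block, 1 fit of all lines and no count filter, but 17 of 27 values with 1 library left out lost the call. Of 37 calls between lines, DESeq2, RLE size factors and no count filter each lost 2, a replicate block lost 0, and 15 of 185 values with 1 library left out lost the call. Of 23 member tests within lines that edgeR did not call and some setting did, 17 were called without the count filter and 7 in 1 fit of all lines, and DESeq2 called 10 of 22. DHRS3 in LNCaP reversed without ACP control replicate 2, to 0.37 for androgen against control medium and to -0.93 for ACP against plastic, where 1 control library remained. Without replicate 1 the values were -1.83 and 1.27.

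The numbers of genes called moved by over 1.5 times as follows. Stripped serum on plastic in LNCaP had 1385, but 2193 with no count filter and 310 to 1444 with 1 library left out. Stripped serum on plastic in VCaP had 139, but 25 with RLE size factors, 1231 with no count filter, 3 with a replicate block, 1561 in 1 fit of all lines, 1169 with DESeq2 and 90 to 220 with 1 library left out. Stripped serum on plastic in MDAPCa2a had 215, but 855 with no count filter, 393 in 1 fit of all lines, 616 with DESeq2 and 0 to 7 with 1 library left out. Stripped serum on ACP in LNCaP had 787, but 1732 with no count filter, 1331 with DESeq2 and 191 to 771 with 1 library left out. Stripped serum on ACP in VCaP had 128, but 927 with no count filter, 340 with a replicate block, 1057 in 1 fit of all lines, 860 with DESeq2 and 0 to 309 with 1 library left out. Androgen against stripped serum in LNCaP had 1133, but 2028 with no count filter, 739 in 1 fit of all lines, 1759 with DESeq2 and 201 to 1771 with 1 library left out. Androgen against stripped serum in VCaP had 2727, but 4545 in 1 fit of all lines and 766 to 2318 with 1 library left out. Androgen against stripped serum in MDAPCa2a had 0, but 9 with no count filter, 1 in 1 fit of all lines, 3 with DESeq2 and 0 to 3 with 1 library left out. Androgen against control medium in RWPE had 2730, but 5741 with a replicate block and 0 to 6102 with 1 library left out. Androgen against control medium in LNCaP had 2218, but 701 to 2555 with 1 library left out. Androgen against control medium in VCaP had 936, but 1774 with no count filter, 2275 in 1 fit of all lines, 1663 with DESeq2 and 87 to 259 with 1 library left out. The surface in stripped serum in LNCaP had 897, but 1827 with no count filter, 342 in 1 fit of all lines, 1775 with DESeq2 and 66 to 1278 with 1 library left out. The surface in stripped serum in VCaP had 0, but 1 with no count filter and 3 with DESeq2. The surface in stripped serum in MDAPCa2a had 1, but 320 with no count filter, 27 in 1 fit of all lines, 213 with DESeq2 and 0 to 303 with 1 library left out. The surface in control medium in RWPE had 595, but 1226 with no count filter, 2661 with a replicate block, 1401 with DESeq2 and 4 to 106 with 1 library left out. The surface in control medium in LNCaP had 1845, but 2933 with no count filter, 647 in 1 fit of all lines and 0 to 2385 with 1 library left out. The surface in control medium in VCaP had 7, but 72 with no count filter, 64 in 1 fit of all lines, 40 with DESeq2 and 1 to 19 with 1 library left out. The surface difference of the stripped serum effect in LNCaP had 45, but 338 with no count filter, 73 in 1 fit of all lines, 209 with DESeq2 and 11 to 148 with 1 library left out. The stripped serum effect between VCaP and LNCaP had 103, but 287 with no count filter, 160 with a replicate block, 440 with DESeq2 and 25 to 119 with 1 library left out. The androgen effect between VCaP and LNCaP had 1887, but 1013 to 2023 with 1 library left out. The 6 comparisons of lines on plastic kept their counts within 1.5 times under every setting run.

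Whether replicate numbers shared between groups pair the libraries was not settled. Over 21 comparisons with 2 pairs each, some of them between lines, deviations of same-numbered libraries correlated from -0.34 to 0.42. In a group of 2 the deviations mirror each other, so these values cannot tell. With the block, VDR in RWPE with androgen was called at -0.81 (adjusted p = 0.00144), DIO1 in LNCaP with androgen at -1.41 (0.0328), and between surfaces in RWPE CYP24A1 at -2.13 (0.0103), VDR at -0.58 (0.0180), DHRS3 at 0.89 (0.0267) and RARA at -0.79 (0.00612). Leaving out the 12 genes that hold date-like values moved no count by over 1.5 times. Only RWPE with androgen has a replicate 3. The block gives that library its own term, which takes it out of the androgen estimate. VDR without that library likewise gave -0.81 (edgeR, adjusted p = 0.00121). What else lay behind these shifts was not tested. With 2 libraries in most groups and 4 or 5 residual degrees of freedom per line, a change short of the threshold is not shown to be absent, and some were called on the same libraries by DESeq2 or another setting. Few reads limit CYP26A1 in every line, CYP24A1 outside RWPE and RARB in RWPE and VCaP.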
